A study of Mus musculus with 19 samples.

Results

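The comparison covered CD11b+ myeloid cells of mouse bone marrow at 4 months of age, from animals labelled MT, which carry mutant Asxl1 in a study of ASXL1 mutant proteins, and animals labelled WT. Its members were all libraries whose labels give the Cd11b+ cell type and this age, 3 MT and 4 WT, which are 7 of the 19 libraries of the series. The other 12 are CD11b+ cells at 18 months and LK+ stem and progenitor cells; of these only the 6 CD11b+ libraries at 18 months, 3 MT and 3 WT, are used here, as the set beside which the young difference was read. The labels do not name the mutation, its promoter, the strain, the sex of the animals or a batch, and they do not say whether replicates came from separate or pooled animals, so every p-value measures only the spread between these libraries. The marrow cells went straight from isolation into the experiment, and directional libraries were made from 200 ng of total RNA. For each library the deposited data hold counts per gene and counts per subfamily of transposable element (TE), the repeated mobile sequences that make up much of the genome.

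ASXL1 is a partner of the BAP1 enzyme, which takes ubiquitin off histone H2A, and the gene is often mutated in myelomonocytic leukemia and in the clonal blood cell expansions of older people. The series concerns a mutant ASXL1 complex with EHMT enzymes, which methylate histone H3 on lysine 9, a mark that keeps TEs silent. CD11b, the integrin encoded by Itgam, is carried by neutrophils and their precursors, monocytes and eosinophils, so the marrow fraction is mostly granulocytic. Granulocytes make their granule proteins in waves, the primary granule enzymes first, and stimulated myeloid cells switch on immediate early genes such as Jun and Fos before the inflammatory genes.

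Counts assigned to genes ranged from 26251822 to 38347903 per library, and the TE tables held 3370285 to 4438906 counts per library. Asxl1 (chr2:153345830-153404007, GRCm38.p6) was at 201, 201 and 204 counts per 1000000 gene counts (CPM) in the MT libraries and 203, 217, 231 and 235 CPM in the WT libraries, a log2 fold change of -0.13 ± 0.06 (SE; unadjusted p = 0.0652 and adjusted p = 0.999, edgeR's quasi-likelihood test with Benjamini-Hochberg adjustment). A gene-level count does not show which allele was read. Itgam was at 1472 to 1813 CPM in all 7 libraries. The summed level of 10 neutrophil markers was 49002 to 59575 CPM in MT and 44017 to 56425 CPM in WT, against 890 to 1413 CPM for B cell markers and 87.2 to 128 CPM for T and NK cell markers over all 7 libraries. The MT and WT ranges overlapped for each of these sums. By gene, all 12 B cell markers tested were lower in MT with 7 libraries (median log2 fold change -0.24) and 10 of 12 with 5 (-0.18). Eosinophil markers were lower for 7 of 8 with 7 libraries (-0.18), 3 of them at an unadjusted p under 0.05 (1.52% of all genes), and for 5 of 8 with 5 (-0.05). Dendritic cell markers were lower for 8 of 10 with 7 libraries (-0.17) and 7 of 10 with 5 (-0.07). None of these was called, and their part in the programs below was not tested.

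Libraries MT replicate 3 and WT replicate 4 stood apart from the other 5. Xist, the RNA that coats the inactive X chromosome, had 0 counts in MT replicate 3 and 8 counts in WT replicate 4, against 48221 to 65185 counts in the other 5. Ddx3y, a Y-linked RNA helicase, was at 104 and 109 CPM in these 2 libraries and at 0 or 1 count elsewhere. On the first principal component of log2 CPM, which held 48.8% of the variance, they lay at 21.3 and 22.7 while the others lay between -12.8 and -5.09. The second component, with 15.9%, separated MT replicates 1 and 2 (9.27 and 13.6) from WT replicates 1 to 3 (-10.03 to -5.09), and there the 2 outlying libraries lay between, at -2.20 and 1.49.

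**Figure D1:**
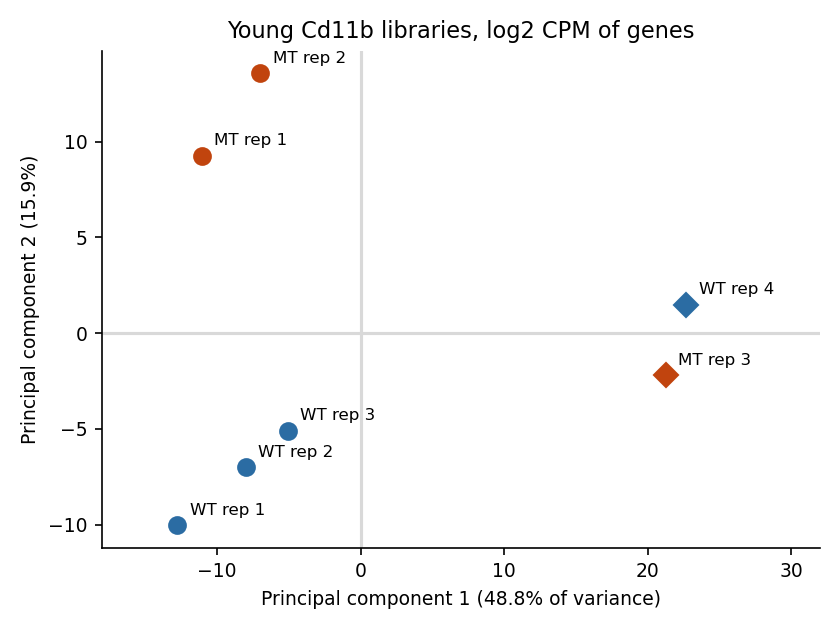
Each point is 1 young CD11b+ library, placed by its first and second principal component of log2 CPM over genes; orange marks MT, blue marks WT, and diamonds mark MT replicate 3 and WT replicate 4. Both diamonds lie at 21.3 or more on the first component, and the other 5 libraries are split by genotype on the second.

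The 2 libraries shared several shifts from the rest of their own groups. Over the 37 interferon response genes tested, MT replicate 3 was lower than the mean of MT replicates 1 and 2 for 33 genes (median difference of log2(CPM + 1) -0.31), and WT replicate 4 was lower than the mean of WT replicates 1 to 3 for 33 genes (median -0.37). B cell markers were lower as well, with medians of -0.72 and -0.63 over 12 genes. Mature neutrophil genes were higher, with medians of 0.23 and 0.33 over 24 genes, and so were inflammatory signalling genes, at 0.26 and 0.28 over 35 genes. Il1b, the secreted cytokine interleukin 1 beta, was at 349 CPM in MT replicate 3 and 462 CPM in WT replicate 4, against 157 to 211 CPM in the other 5 libraries. The median over all genes was -0.01 in both, and the part of sex, handling or cell content in these shifts was not tested.

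The immediate early, histone and granule lists did not move alike in these 2 libraries, by the same differences. Immediate early genes were higher in MT replicate 3 for 29 of 31 genes (median 0.37) and had a median of -0.22 in WT replicate 4. In WT replicate 4 the list was mixed, with 14 of 31 genes higher. It was below each of WT replicates 1 to 3 for 16 genes and above each of them for 12. Replication-dependent histone genes had medians of 0.25 and -0.19 over 44 genes. Primary granule genes had a median of 0.06 in MT replicate 3 and of -0.47 in WT replicate 4, where all 14 were lower. By median WT replicate 4 thus lay toward the MT libraries in all 3 lists, though its immediate early genes went both ways. MT replicate 3 lay toward the WT libraries in the immediate early and histone lists. The counts, the list medians and the leading genes are therefore given with and without the pair.

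With all 7 libraries, no gene of 13755 tested was called at an adjusted p under 0.05 (0.0% of genes; edgeR's quasi-likelihood test with Benjamini-Hochberg adjustment). At an unadjusted p under 0.05 there were 444 genes (3.23%), 235 higher (1.71%) and 209 lower (1.52%) in MT, and DESeq2 called 19. The MT and WT libraries did not overlap for 613 genes (4.46%). With a term for the sex-linked level of each library, edgeR called 7 genes (0.0509%): Trp53inp2, H2afy2 and Sulf2 higher in MT (0.0218%), and Lbp, Nfkbiz, Rps4y2 and Tnfaip3 lower (0.0291%). Without MT replicate 3 and WT replicate 4, 2 MT libraries against 3 WT libraries, it called 69 of 13874 genes (0.497%), 19 higher (0.137%) and 50 lower (0.36%), and 1441 had an unadjusted p under 0.05 (10.4%). All 7 genes called with the sex-linked term were among the 69. The 3 fits share libraries, so this overlap is no separate evidence. The counts moved with single libraries. Without MT replicate 1 or 2, the 5-library fit holds 1 MT library, which is assumed to vary like the WT libraries. Leaving out 1 more library moved the 69 to between 11 (without MT replicate 2) and 126 (without WT replicate 1), and DESeq2 gave 174. Leaving out single libraries moved the 7 to between 0 (without MT replicate 2) and 70 (without MT replicate 3), and DESeq2 gave 51. The median size of the 69 changes was 0.55 on the log2 scale, and 9 reached 2-fold. All 69 had the same sign with all 7 libraries, which include the 5 libraries that chose them.

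For many of these 69 genes both libraries lay toward the other genotype. The genes were chosen without these 2 libraries, which favors such an order by itself, so the counts are no separate evidence. Of the 50 genes called lower, WT replicate 4 was below WT replicates 1 to 3 for 36 and MT replicate 3 was above MT replicates 1 and 2 for 44. MT replicate 3 exceeded WT replicate 4 for 39 of these 50, and for 6399 of all 13755 genes tested with 7 libraries. Of the 19 called higher, WT replicate 4 was above the other WT libraries for 14 and MT replicate 3 below the other MT libraries for 11. Leaving out WT replicate 4 alone gave 1 call, and leaving out MT replicate 3 alone gave 0.

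**Figure D2:**
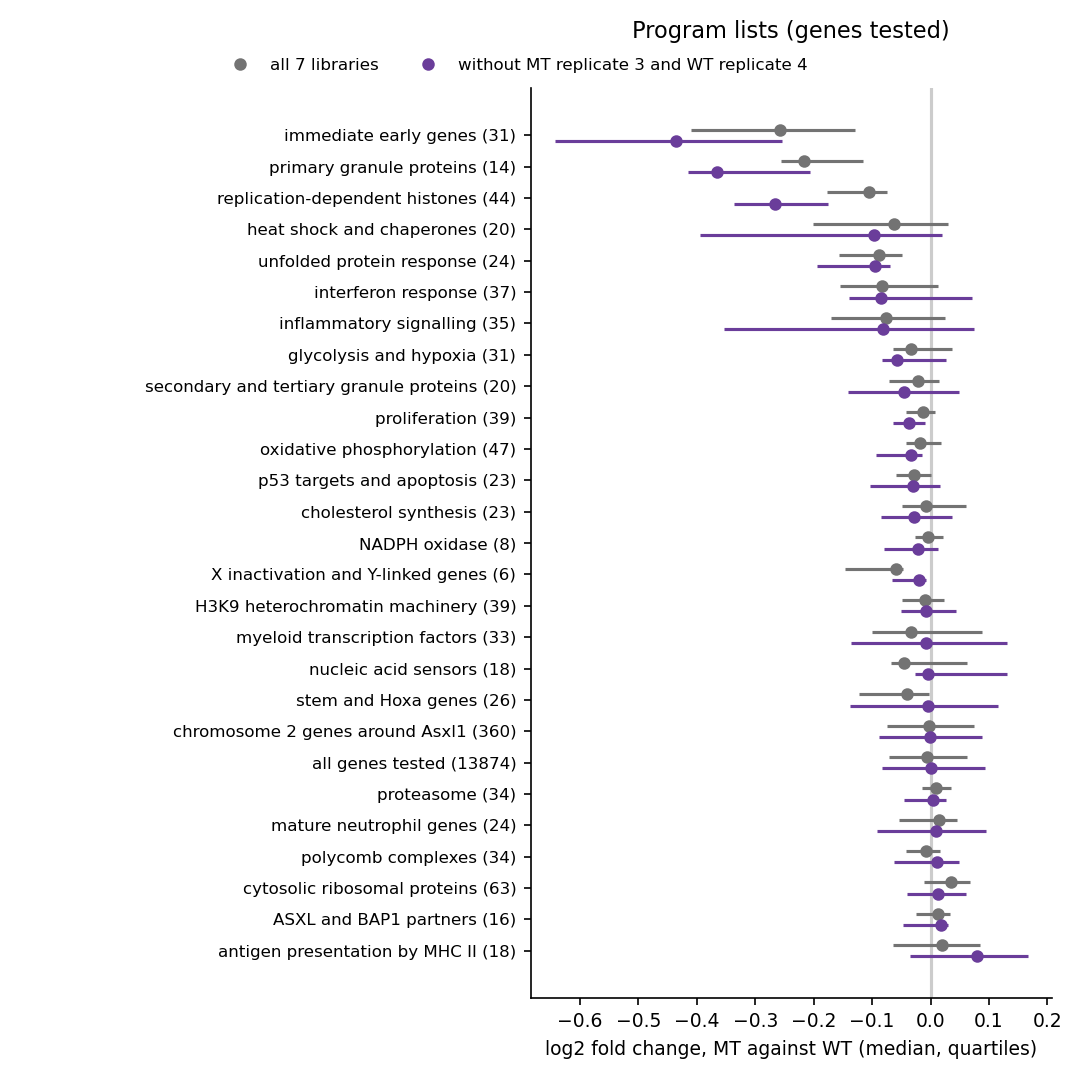
Median log2 fold change, MT against WT, of each program list (points) with its quartiles (bars), for all 7 libraries in grey and for the 5 libraries without MT replicate 3 and WT replicate 4 in purple; the number of genes tested in the 5 libraries is in brackets. Immediate early genes, primary granule proteins and replication-dependent histones lie lowest in both fits, at -0.26, -0.22 and -0.10 with 7 libraries and -0.44, -0.37 and -0.27 with 5.

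Immediate early genes, the transcription factors and feedback regulators that cells switch on within minutes of a signal, were the list with the lowest median. With 7 libraries, 28 of 31 tested genes were lower in MT, 10 of them at an unadjusted p under 0.05, where 1.52% of all genes were, and the median log2 fold change was -0.26 against -0.01 for all genes. With 5 libraries, 12 of 31 fell (0.36% of all genes were called lower) and none rose. At an unadjusted p under 0.05, 24 were lower (5.28% of all genes) and 1 was higher, and the median was -0.44 against 0.00 for all genes. MT replicates 1 and 2 lay below WT replicates 1 to 3 for 24 of the 31, against 13.7% of all genes.

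The proximal promoter is where signal-responsive factors bind several of these genes. Of the 31 genes, 26 had promoters in the RefSeq table (GRCm38.p6), 35 promoters in all, and the 250 bases before each start were searched on both strands. The cAMP response element TGACGTCA, bound by CREB and ATF factors, was present for 4 of the 26 (15.4%: Btg2, Dusp1, Maff and Ppp1r15a), against 1.77% of the 27025 genes in the table, each counted once if any of its promoters held it. The CArG box, bound by serum response factor, was present for 3 (11.5%: Dusp5, Egr2 and Zfp36), against 1.62% of genes. The AP-1 motif TGANTCA was present for 1 (3.85%: Csrnp1), against 7.82% of genes. The sequences are 80 bases of each of the 4 promoters with the response element, in capitals, and the last 80 bases of the Jun window before its start. The Jun bases hold no match to the motifs searched, but they hold tgacatca, which differs from the response element in 1 base. Matches with a changed base were not searched. The strand is that of the gene.
Ppp1r15a, chr7:45526269-45526348, minus strand: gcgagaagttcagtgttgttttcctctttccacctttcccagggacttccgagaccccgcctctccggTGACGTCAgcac
Dusp1, chr17:26508572-26508651, minus strand: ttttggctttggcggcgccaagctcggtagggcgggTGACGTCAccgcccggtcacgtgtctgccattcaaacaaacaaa
Btg2, chr1:134079278-134079357, minus strand: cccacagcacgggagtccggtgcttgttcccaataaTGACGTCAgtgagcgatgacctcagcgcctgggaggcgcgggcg
Maff, chr15:79347440-79347519, plus strand: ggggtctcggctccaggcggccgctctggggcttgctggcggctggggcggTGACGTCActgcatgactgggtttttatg
Jun, chr4:95052223-95052302, minus strand: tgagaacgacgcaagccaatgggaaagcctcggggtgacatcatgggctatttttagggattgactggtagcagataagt
The element begins 12 bases before the start in Ppp1r15a, 29 in Maff, 143 in Dusp1 and 166 in Btg2. A match is a stretch of letters, not a measured binding site.

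The 10 tested AP-1 genes encode the dimerizing factors of the Jun and Fos families and their relatives. With 5 libraries 9 were lower at an unadjusted p under 0.05 (5.28% of all genes) and 4 were called (0.36%), at a median of -0.69. Jun had the largest difference of the 4. Jun was at 354, 344 and 402 CPM in MT and 846, 729, 750 and 268 CPM in WT. The 3 MT libraries were close together and WT replicates 1 to 3 were all higher, but WT replicate 4 was below every MT library. Jun fell with 5 libraries, at a log2 fold change of -1.15 ± 0.07 (SE; edgeR, Benjamini-Hochberg adjusted p = 0.00013), and was at -0.82 with 7 (unadjusted p = 0.0533). The log2 fold change Jun had without WT replicate 4 alone was -1.08 (adjusted p = 0.0032, edgeR). Fos was at 951, 855 and 1263 CPM in MT and 1453, 1495, 1471 and 1141 CPM in WT. Here the groups overlapped only because MT replicate 3 lay above WT replicate 4. Its log2 fold change was -0.71 ± 0.07 with 5 libraries (adjusted p = 0.00233, edgeR) and -0.44 with 7 (unadjusted p = 0.0127). Jund fell by 0.67 ± 0.08 on the log2 scale with 5 libraries (adjusted p = 0.0099, edgeR), from 344 to 417 CPM in WT replicates 1 to 3 to 230 and 246 CPM in MT replicates 1 and 2, and was at -0.44 with 7 (unadjusted p = 0.0129). Fosb, at 179, 160 and 270 CPM in MT and 479, 349, 350 and 255 CPM in WT, had a log2 fold change of -1.21 ± 0.18 and was not called (adjusted p = 0.11, edgeR). Junb was not called either, at -0.33 (adjusted p = 0.0845, edgeR).

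Atf3, a stress-induced repressor of the same superfamily, behaved differently. It was at 21.6 and 24.004 CPM in MT replicates 1 and 2 and 33.7, 34.96 and 34.4 CPM in WT replicates 1 to 3, and at 68.8 and 63.8 CPM in MT replicate 3 and WT replicate 4. The pair was higher than every other library in both genotypes. Atf3 fell by 0.59 ± 0.07 on the log2 scale with 5 libraries (edgeR, adjusted p = 0.0099), and its value with 7 was -0.13 (unadjusted p = 0.789). Nr4a1, also called lower with 5 libraries, had the pair highest too, at 94.5, 89.8 and 165 CPM in MT and 109, 115, 113 and 155 CPM in WT. Its log2 fold change was -0.29 with 5 libraries and -0.08 with 7 (edgeR, unadjusted p = 0.736).

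The feedback regulators did not share the order of Atf3. Dusp1, a phosphatase that switches off MAP kinases, was at 379, 407 and 641 CPM in MT and 627, 784, 796 and 593 CPM in WT. MT replicates 1 and 2 were the 2 lowest libraries, and MT replicate 3 lay within the WT range. Dusp1 fell by 0.90 ± 0.10 on the log2 scale with 5 libraries (adjusted p = 0.0136, edgeR) and was at -0.56 with 7 (unadjusted p = 0.0163). Btg2, an anti-proliferative cofactor of mRNA decay, was at 438, 381 and 517 CPM in MT and 631, 563, 611 and 495 CPM in WT, and fell by 0.56 ± 0.08 with 5 libraries (adjusted p = 0.0143, edgeR), against -0.37 with 7. Ppp1r15a, which directs the phosphatase that restores translation after stress, was at 51.9, 47.2 and 58.4 CPM in MT and 82.2, 73.3, 73.0 and 44.2 CPM in WT, and fell by 0.62 ± 0.07 with 5 libraries (adjusted p = 0.00626, edgeR), against -0.38 with 7. In both genes WT replicates 1 to 3 were higher than every MT library, and WT replicate 4 lay within or below the MT range. The other members called lower were Ier2, Egr1, Klf6, Gadd45b and Nr4a1, with log2 fold changes from -0.58 to -0.29. Maff, whose promoter also holds the response element, was at 1.38 to 3.26 CPM in MT and 2.13 to 2.92 CPM in WT and was not called (-0.79, adjusted p = 0.219, edgeR). Myc, the growth regulator of the list, was at 53.3 to 58.0 CPM in the 5 libraries and at 30.0 and 33.3 CPM in MT replicate 3 and WT replicate 4.

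**Figure D3:**
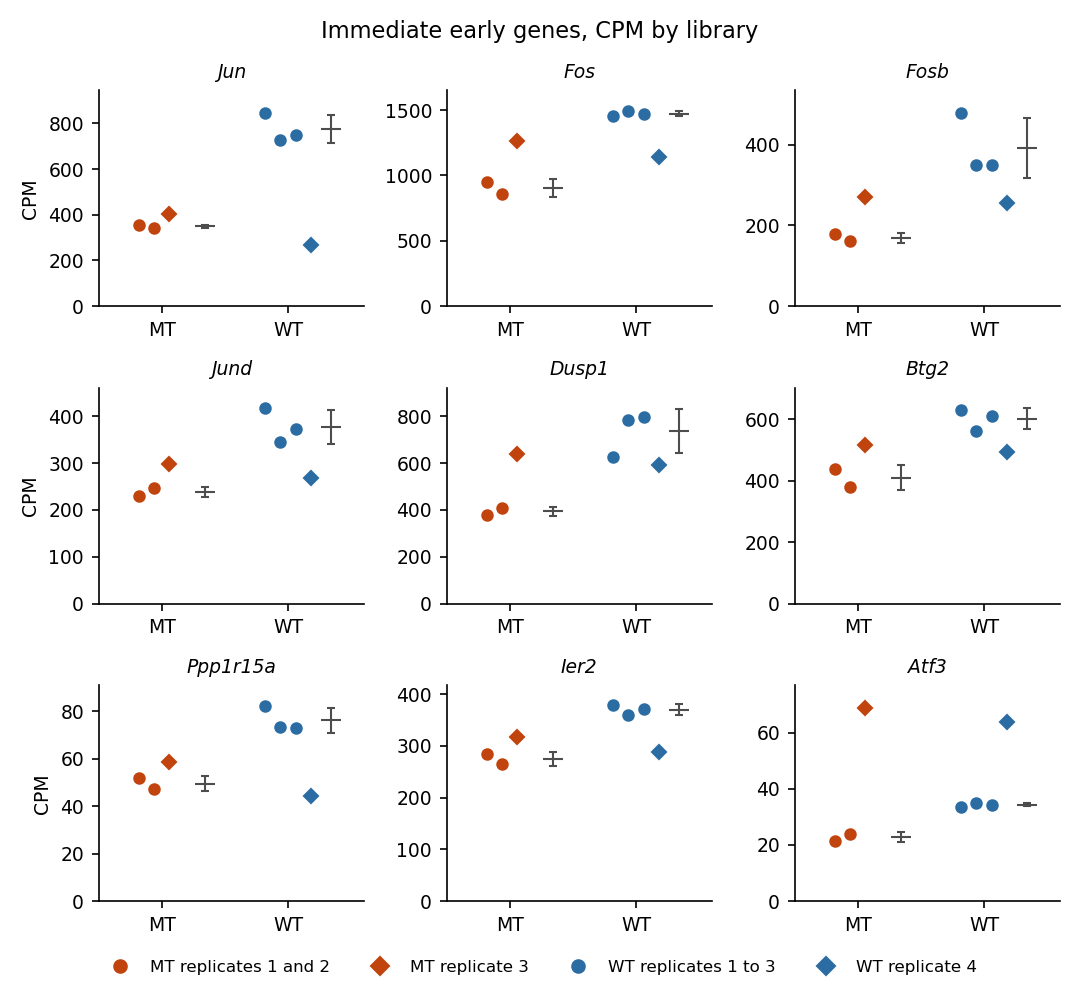
CPM by library of 9 immediate early genes, with MT in orange and WT in blue, diamonds for MT replicate 3 and WT replicate 4, and bars for the mean ± SD of MT replicates 1 and 2 and of WT replicates 1 to 3. WT replicate 4 lies near the MT libraries for Jun (268 CPM) and Ppp1r15a (44.2 CPM), MT replicate 3 lies near the WT libraries for Dusp1 (641 CPM), and both lie above all others for Atf3.

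Rhob, a small GTPase of endosomes that is induced by the same kinds of signal but was not on the list, had nearly the pattern of Jun. It was at 234, 230 and 311 CPM in MT and 524, 432, 455 and 227 CPM in WT. WT replicates 1 to 3 were highest and WT replicate 4 the lowest of all 7 libraries. Rhob fell by 1.02 ± 0.08 on the log2 scale with 5 libraries (edgeR, adjusted p = 0.00101) and was at -0.67 with 7 (unadjusted p = 0.0387).

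The immediate early list went the other way in the cells of 18-month-old animals, which share no library with the young set. There its median log2 fold change was 0.25, with 17 genes higher and 0 lower at an unadjusted p under 0.05 (8.49% of genes were higher and 8.16% lower). Jun was at 325, 384 and 393 CPM in old MT and 277, 158 and 156 CPM in old WT, so every old MT library was above every old WT library. Neither Jun nor any other member was among the 3 genes whose genotype difference differed by age at an adjusted p under 0.05 (edgeR interaction term). All 6 old libraries carried Ddx3y and had no Xist counts, as MT replicate 3 did and WT replicate 4 nearly did among the young. Between these 2 young libraries 21 of the 31 genes were higher in MT replicate 3, with a median difference of 0.09 and no replicate check. The old libraries also differed in composition: 7SK, a small nuclear RNA listed in the TE table, was at 6124 to 11880 CPM of gene counts in every young library and 4.83 to 5.37 in every old one, and Hist1h2be was at 137 to 178 CPM in young and 7.29 to 9.20 CPM in old libraries. Age and this difference in libraries cannot be told apart.

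Inflammatory signalling genes were called lower for 5 of 35 members with 5 libraries (0.36% of all genes), and none was called higher: Osm, Trem1, Nfkbiz, Tnfaip3 and Ccl2. The list median was -0.08 with 5 libraries and with 7. Nfkbiz, a nuclear partner of NF-kB that is needed for a secondary set of cytokine genes, was at 264, 291 and 320 CPM in MT and 358, 364, 361 and 396 CPM in WT. Tnfaip3, which encodes A20, an inhibitor of NF-kB signalling, was at 62.6, 71.6 and 84.3 CPM in MT and 89.4, 85.8, 87.2 and 104 CPM in WT. In both genes all 3 MT libraries lay below all 4 WT libraries, as 2.15% of all genes did. Both fell by 0.36 on the log2 scale with the sex-linked term (edgeR, adjusted p = 0.0425 for Nfkbiz and 0.0462 for Tnfaip3), and by 0.38 with 5 libraries.

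The upstream and secreted members depended more on the pair of libraries. Osm, the cytokine oncostatin M, was at 166, 175 and 268 CPM in MT and 241, 237, 230 and 264 CPM in WT, and fell by 0.47 ± 0.05 on the log2 scale with 5 libraries (edgeR, adjusted p = 0.00626), against -0.26 with 7 (unadjusted p = 0.121). MT replicate 3 was the highest of all libraries. Trem1, a receptor that amplifies neutrophil and monocyte activation, had the same order, with 129 and 134 CPM in MT replicates 1 and 2, 163 to 177 CPM in WT replicates 1 to 3 and 229 and 227 CPM in the pair. Il1b was at 0.06 with 5 libraries and was not called (adjusted p = 0.937, edgeR). By role, the 7 chemokine genes had a median of -0.33 with 5 libraries, the 11 cytokine genes of 0.06 and the 17 regulators of -0.07. The AP-1 motif TGANTCA was in the promoter windows of 8 of the 27 members matched to RefSeq (29.6%, against 7.82% of all genes): Ccl9, Il1a, Il1rn, Il6, Nfkb2, Nfkbie, Tnfaip3 and Tnfsf14. The Tnfaip3 promoter is shown as the one of these genes that was called, with the motif in capitals, 136 bases before the start, on the strand of the gene.
Tnfaip3, chr10:19015504-19015583, minus strand: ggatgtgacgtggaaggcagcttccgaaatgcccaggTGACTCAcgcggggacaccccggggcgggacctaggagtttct

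The primary granule list holds granule protein genes that promyelocytes transcribe, and other genes beside them. Among these others are Gfi1 and Cebpe, also on the myeloid transcription factor list, Calr, also an unfolded protein response gene, and Nkg7, also a T and NK cell marker. All 14 members tested were lower in MT, with a median log2 fold change of -0.22 with 7 libraries and -0.37 with 5. The 4 protease genes had medians of -0.25 and -0.39, and the other 10 of -0.15 and -0.24. With 5 libraries 1 protease gene and 2 of the others were called. Of the 14, 3 were called with 5 libraries (0.36% of all genes were called lower). At an unadjusted p under 0.05, 11 were lower (5.28% of all genes), and for 11 the groups did not overlap (13.7% of all genes). Mpo, the myeloperoxidase that makes hypochlorous acid, was at 2972, 3009 and 2934 CPM in MT and 4295, 4158, 3700 and 2389 CPM in WT. Elane, neutrophil elastase, was at 773, 784 and 861 CPM in MT and 1109, 1057, 973 and 676 CPM in WT. Gfi1, the repressor that directs granulocyte differentiation, was at 51.3, 51.8 and 55.7 CPM in MT and 68.3, 67.0, 64.4 and 50.1 CPM in WT. For each of the 3, WT replicates 1 to 3 were above all MT libraries and WT replicate 4 was below all of them. The log2 fold changes with 5 libraries were -0.44 ± 0.08 for Mpo, -0.43 ± 0.07 for Elane and -0.37 ± 0.06 for Gfi1 (edgeR, adjusted p = 0.0496, 0.0297 and 0.0256), and with 7 libraries -0.29, -0.24 and -0.24. Prtn3 (proteinase 3), Ctsg (cathepsin G) and Ms4a3 had values of -0.40, -0.38 and -0.44 and were not called.

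Lists of later granulocyte stages had medians nearer to 0. Secondary and tertiary granule genes had a median of -0.02 with 7 libraries and -0.05 with 5, with none of 20 called. Of 24 mature neutrophil genes 1 was called with 5 libraries, as lower (0.36% of all genes were). This was Srgn, the granule proteoglycan serglycin, at 357 and 345 CPM in MT replicates 1 and 2, 420 to 440 CPM in WT replicates 1 to 3 and 515 and 471 CPM in the pair. The NADPH oxidase genes, which encode the respiratory burst enzyme, had medians of -0.00 with 7 libraries and -0.02 with 5, and with 5 none was below an unadjusted p of 0.05. The summed stem and progenitor cell markers were 428 to 491 CPM in MT and 420 to 541 CPM in WT, with MT replicate 3 and WT replicate 4 lowest in their groups, and their part in the granule difference was not tested. In these bulk libraries fewer cells of a type and less RNA per cell cannot be told apart.

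Replication-dependent histone genes, which dividing cells transcribe in S phase, were lower in MT for 43 of 44 members in both fits. The median was -0.10 with 7 libraries, where none passed an unadjusted p of 0.05, and -0.27 with 5, where 23 were lower at that threshold (5.28% of all genes) and 3 fell (0.36%): Hist1h2ae, Hist1h2ag and Hist1h2be. Hist1h2ae was at 66.6, 68.1 and 78.9 CPM in MT and 92.5, 81.8, 85.6 and 68.2 CPM in WT. WT replicates 1 to 3 lay above all MT libraries and WT replicate 4 lay among them. Histone genes of a cluster are near-identical copies, so the share of each gene in these counts is uncertain. Other proliferation genes had a median of -0.04 with 5 libraries, 3 of 39 lower at an unadjusted p under 0.05 (5.28% of all genes) and none called. With 7 libraries their median was -0.01. H3f3b, which encodes the replication-independent histone H3.3 and was on neither list, fell by 0.45 ± 0.06 on the log2 scale with 5 libraries (edgeR, adjusted p = 0.0154), against -0.28 with 7. It was singled out after its values were seen.

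Stress programs moved by less. Unfolded protein response genes were lower in MT for all 24 members with 5 libraries, at a median of -0.09, and 1 was called (0.36% of all genes were called lower). It was Atf4, the factor of the integrated stress response, at 181, 177 and 196 CPM in MT and 237, 220, 216 and 182 CPM in WT. WT replicate 4 again lay within the MT range. Heat shock and chaperone genes had a median of -0.10 over 20 members, with 3 lower and 1 higher at an unadjusted p under 0.05 (5.28% and 5.11% of all genes) and none called. With 7 libraries its median was -0.06 and that of the unfolded protein response -0.09. The heat-inducible Hspa1a was at 15.5, 4.23 and 64.9 CPM in MT and 151, 54.2, 51.2 and 7.76 CPM in WT. Its levels ranged widely within each genotype, and Hspa1b had the same order of libraries. The small nucleolar RNA genes Snord14c, Snord14d and Snord14e, singled out after their values were seen, were at 2.73 to 4.78 CPM in WT replicates 1 to 3 and at 0.726 to 1.44 CPM in the other 4 libraries. All 3 fell with 5 libraries.

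Monocyte genes were on the higher side. Of 12 monocyte and macrophage markers 11 were higher in MT with 5 libraries, 6 of them at an unadjusted p under 0.05 (5.11% of all genes), at a median of 0.18, and 1 rose (0.137% of genes were called higher). With 7 libraries 9 of 12 were higher, 3 at an unadjusted p under 0.05 (1.71% of all genes), the median was 0.10 and none was called. Their summed level was 2671, 2852 and 2627 CPM in MT and 2384, 2558, 2544 and 2657 CPM in WT, so only WT replicate 4 reached the MT range. The marker that rose was Cx3cr1, the fractalkine receptor, at 90.4, 82.2 and 77.4 CPM in MT and 61.9, 65.1, 68.4 and 65.6 CPM in WT. All 3 MT libraries were above all 4 WT libraries. Its log2 fold change was 0.40 ± 0.06 with 5 libraries (edgeR, adjusted p = 0.0279) and 0.35 ± 0.07 with 7 (unadjusted p = 0.000438). Irf5, which drives inflammatory macrophage genes, was at 108 to 120 CPM in MT and 93.3 to 104 CPM in WT. Its groups did not overlap with 7 libraries (2.3% of genes were higher in that way), and it was not called.

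The matrix genes Fn1 and Vcan were called as well. Fn1, which encodes fibronectin, was at 2241, 2494 and 2408 CPM in MT and 1226, 1437, 1619 and 2005 CPM in WT. The groups did not overlap, and WT replicate 4 came closest to the MT level. Fn1 rose with 5 libraries, at a log2 fold change of 0.73 ± 0.11 (edgeR, adjusted p = 0.0297), and was at 0.60 ± 0.15 with 7 (unadjusted p = 0.00228). Vcan, the proteoglycan versican, was at 46.8, 37.0 and 58.2 CPM in MT and 24.3, 27.3, 23.0 and 58.3 CPM in WT, and rose by 0.75 ± 0.11 with 5 libraries (edgeR, adjusted p = 0.025), against 0.52 with 7 (unadjusted p = 0.181). Its WT replicate 4 was at the level of MT replicate 3. The part of the summed monocyte markers in these differences was not tested. The markers of stroma and endothelium, other sources of matrix transcripts, summed to 403, 217 and 99.6 CPM in MT and 119 to 234 CPM in WT, with 2 of 11 below 1 CPM everywhere. Summed levels of the remaining marker lists overlapped between the genotypes: 134 to 188 CPM in MT and 169 to 211 CPM in WT for dendritic cells, 281 to 523 and 293 to 484 CPM for erythroid cells, 72.0 to 99.8 and 69.3 to 114 CPM for megakaryocytes, 1668 to 2130 and 1988 to 2536 CPM for eosinophils, and 617 to 778 and 621 to 728 CPM for mast cells and basophils.

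Genes on chromosome 2 beyond Asxl1 took a larger part of the differences than chromosome 2 takes of the genes tested. Of the tested genes with a RefSeq position, 7.71% were on chromosome 2, while it held 17 of the 93 with an unadjusted p under 0.01 using 7 libraries (18.3%). It held 3 of the 7 genes called with the sex-linked term and 11 of the 69 called with 5 libraries (15.9%). Of these 11, Olfm1 lay 125 Mb from Asxl1, toward lower coordinates. At an unadjusted p under 0.05 the excess was smaller. Chromosome 2 then held 50 of 416 genes with 7 libraries (12.0%). With 5 libraries it held 120 of 1385 (8.66%, against 7.70% of the genes tested). A window of the 200 listed genes on each side of Asxl1 reached 30.7 Mb toward lower and 20.9 Mb toward higher coordinates. All 8 genes called in it with 5 libraries lay on the side of higher coordinates, between 0.818 and 15.1 Mb from Asxl1. The nearest 100 genes reached 21.3 Mb on the side of lower coordinates and only 10.2 Mb on the side of higher coordinates. With 7 libraries, 13 of 83 tested genes among the nearest 100 on that side were at an unadjusted p under 0.05 (15.7%, against 3.23% of all genes), and 1 of 92 among the nearest 100 on the other side (1.09%). With 5 libraries, where 10.4% of all genes passed, these were 14 of 83 (16.9%) and 9 of 92 (9.78%). The farther 100 on the side of higher coordinates gave 4 of 91 with 7 libraries and 17 of 90 (18.9%) with 5, and those on the other side 3 of 93 and 10 of 95 (10.5%). Over the whole window 12 genes were higher and 9 lower at an unadjusted p under 0.05 with 7 libraries, and the median was -0.00. The labels do not say how or in which strain the allele was made.

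**Figure D4:**
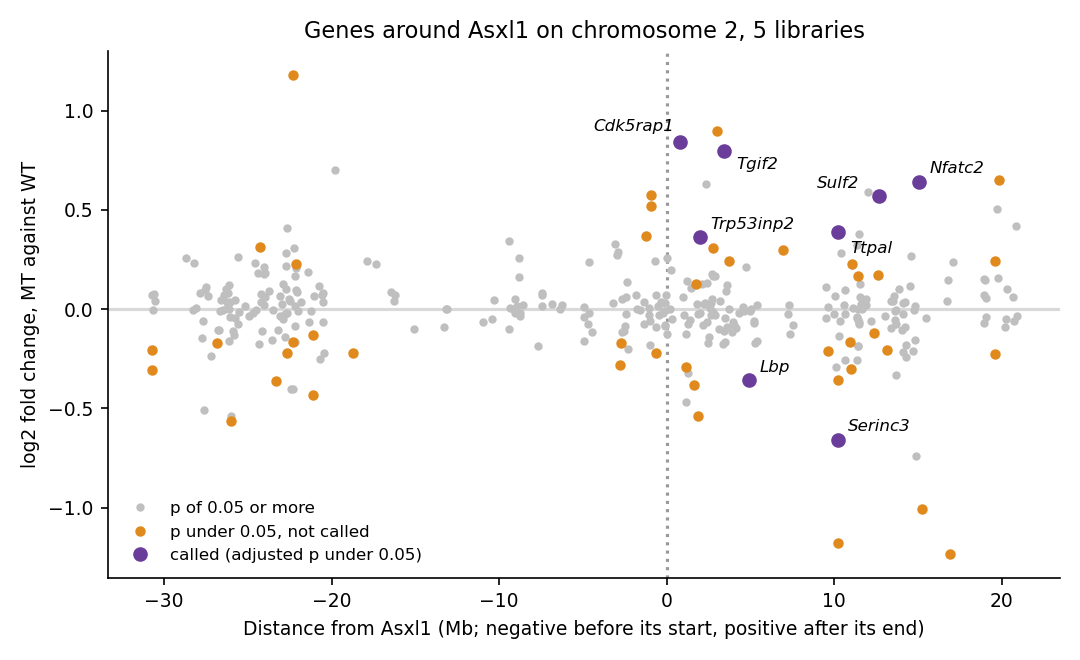
Log2 fold change, MT against WT with 5 libraries, of tested genes among the 200 on each side of Asxl1 on chromosome 2, by distance in Mb; purple points were called at an adjusted p under 0.05 and orange points had an unadjusted p under 0.05. The 8 called genes, from Cdk5rap1 at 0.818 Mb to Nfatc2 at 15.1 Mb, all lie to the right of Asxl1, 6 of them higher and 2 lower in MT.

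Several of these genes separated the genotypes with all 7 libraries. Lbp (chr2:158306493-158332852), the lipopolysaccharide-binding protein, was at 87.9, 90.8 and 86.6 CPM in MT and 114, 115, 114 and 105 CPM in WT. Its log2 fold change was -0.34 ± 0.06 with 7 libraries (unadjusted p = 0.000133) and -0.36 ± 0.05 with 5 (edgeR, adjusted p = 0.0158). Tgif2 (chr2:156839817-156855570), a homeodomain repressor in TGF-beta signalling, was at 5.35, 6.15 and 5.46 CPM in MT and 3.31, 3.57, 3.08 and 3.06 CPM in WT, a log2 fold change of 0.80 ± 0.13 with 7 libraries (unadjusted p = 0.000136). Both genes had no overlap between the genotypes, and MT replicate 3 and WT replicate 4 kept to their own groups. Phf20, a reader of methylated histones, did the same at 44.5 to 47.7 CPM in MT and 36.3 to 40.3 CPM in WT, and was not called. Trp53inp2, an autophagy regulator, was at 224, 227 and 283 CPM in MT and 161, 179, 186 and 214 CPM in WT. Sulf2, a sulfatase of heparan sulfate, was at 60.1, 67.3 and 74.5 CPM in MT and 37.2, 46.7, 44.8 and 53.2 CPM in WT. These 2 had no overlap either, and both rose with the sex-linked term (edgeR, adjusted p = 0.0425 for each), by 0.37 and 0.55 on the log2 scale.

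Other genes of the same stretch differed only in MT replicates 1 and 2. Cdk5rap1 (chr2:154222011-154373038), which modifies mitochondrial transfer RNAs, was at 9.01, 9.87 and 4.60 CPM in MT and 5.51, 5.18, 5.12 and 3.86 CPM in WT. Nfatc2 (chr2:168476410-168601657), a calcium-regulated transcription factor, was at 37.0, 38.1 and 27.6 CPM in MT and 24.4, 22.3, 25.4 and 28.8 CPM in WT. Ttpal, a lipid-transfer protein gene, was at 44.3, 43.7 and 32.7 CPM in MT and 32.4 to 35.5 CPM in WT. For all 3, MT replicate 3 lay within the WT range, and the log2 fold changes with 5 libraries were 0.84 ± 0.12, 0.64 ± 0.07 and 0.39 ± 0.07 (edgeR, adjusted p = 0.0153, 0.00626 and 0.0337), against 0.67, 0.44 and 0.25 with 7. Serinc3 (chr2:163623273-163645149), which encodes a protein with many membrane spans, was intermediate in MT replicate 3, at 619, 592 and 841 CPM in MT and 957, 957, 953 and 903 CPM in WT. It fell by 0.66 ± 0.06 on the log2 scale with 5 libraries (edgeR, adjusted p = 0.0014), and was at -0.46 with 7, where its groups did not overlap.

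The 18-month comparison, with its own libraries, gave values for the same genes. Serinc3 was at 564, 565 and 547 CPM in old MT and 795, 806 and 790 CPM in old WT, a log2 fold change of -0.51 (edgeR, adjusted p = 0.00476; 0.336% of genes were called in that comparison). Lbp was at -0.41 (adjusted p = 0.0159, edgeR), Trp53inp2 at 0.40 (adjusted p = 0.0195, edgeR), Tgif2 at 1.34 (adjusted p = 0.0159, edgeR) and Nfatc2 at 0.93 (adjusted p = 0.0159, edgeR). These 5 had the sign of the young difference. Cdk5rap1 had the opposite sign, with 4.52, 3.99 and 4.29 CPM in old MT and 5.70, 6.98 and 7.10 CPM in old WT, and was not called there.

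Outside chromosome 2, H2afy2 had one of the largest fold changes, at a low level. The gene encodes macroH2A2, a histone variant of repressed chromatin, and was at 1.59, 2.25 and 2.27 CPM in MT and 0.624, 0.595, 0.664 and 0.726 CPM in WT. Every MT library was above every WT library. Its log2 fold change was 1.64 ± 0.23 with 7 libraries (unadjusted p = 3.74e-05), 1.61 with the sex-linked term (edgeR, adjusted p = 0.0425) and 1.61 ± 0.28 with 5 libraries (edgeR, adjusted p = 0.0368). Plk2, a kinase of centriole duplication that p53 induces, was at 19.1, 18.3 and 19.8 CPM in MT and 30.0, 26.0, 27.4 and 22.2 CPM in WT, with no overlap, and fell by 0.57 ± 0.08 on the log2 scale with 5 libraries (edgeR, adjusted p = 0.0172), against -0.47 with 7. Rps4y2 was at 2.68 to 3.93 CPM in MT and 4.85 to 8.78 CPM in WT and was called with the sex-linked term and with 5 libraries; it belongs to a family of near-identical ribosomal protein copies, so its counts are uncertain.

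None of the interferon response genes was called. Their median was -0.08 with 7 and with 5 libraries, and 26 of 37 were lower in MT with 7 libraries and 23 of 37 with 5. With 5 libraries 3 of 37 were higher and 4 lower at an unadjusted p under 0.05, where 5.11% and 5.28% of all genes were. Irf1, the interferon-induced transcription factor, was at 96.9, 111 and 105 CPM in MT and 88.9, 96.1, 85.2 and 94.2 CPM in WT. Its groups did not overlap with 7 libraries (edgeR, unadjusted p = 0.0166), and 2.3% of all genes were higher in that way. Irf7, the amplifier of type I interferon, was at 40.3, 49.8 and 36.9 CPM in MT and 51.3, 52.0, 47.3 and 38.5 CPM in WT. The pair of outlying libraries held the lowest Irf7 level of each genotype. Nucleic acid sensors had a median of -0.04 with 7 libraries and -0.00 with 5, with none called.

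Chromatin regulators and stem cell genes were near the median of all genes. The 39 genes of the H3K9 methylation machinery had a median of -0.01 in both fits, and none passed an unadjusted p of 0.05 in either. Ehmt1 was at 63.8 to 68.8 CPM in MT and 62.1 to 68.9 CPM in WT. ASXL and BAP1 partners had medians of 0.01 and 0.02 over 16 genes, and polycomb genes of -0.01 and 0.01 over 34. Stem cell and Hoxa genes had medians of -0.04 and -0.00 over 26 genes, with Hoxa9 at 1.06 to 2.78 CPM in MT and 1.57 to 2.47 CPM in WT. Antigen presentation genes of MHC class II had medians of 0.02 and 0.08 over 18 genes, with none called. Of 33 myeloid transcription factor genes, 3 were called lower with 5 libraries, the Gfi1, Egr1 and Nr4a1 described above, where 0.36% of all genes were, 6 were higher and 7 lower at an unadjusted p under 0.05 (5.11% and 5.28% of all genes), and the median was -0.01. The list of X inactivation and Y-linked genes had 6 members tested with 5 libraries and none called. Cytosolic ribosomal protein genes had medians of 0.03 and 0.01, oxidative phosphorylation genes of -0.02 and -0.03, and proteasome genes of 0.01 and 0.00. Glycolysis and hypoxia, cholesterol synthesis and p53 target lists had medians from -0.06 to -0.01 in these fits, with none called.

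No difference between the genotypes was detected in the amount of TE transcripts. All rows of the TE table summed to 124, 115 and 150 counts per 1000 gene counts in MT and 129, 114, 114 and 169 in WT, a mean of 129.7 ± 18.3 (SD, n = 3) against 131.6 ± 25.9 (SD, n = 4). MT replicate 3 and WT replicate 4 were the highest of their groups, and the groups overlapped. The difference was -1.84 per 1000 (exact permutation test over 35 splits, p = 0.914, adjusted p = 1 over 5 shares). The smallest p this design allows is 0.0571. The shares of LINE, SINE, LTR and DNA elements differed by 0.136, -1.11, -0.505 and -0.129 per 1000, each with an exact permutation p of 0.914 or more. Reads that map to many copies can be counted in different ways, and how that was done is not given in the sources used here.

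**Figure D5:**
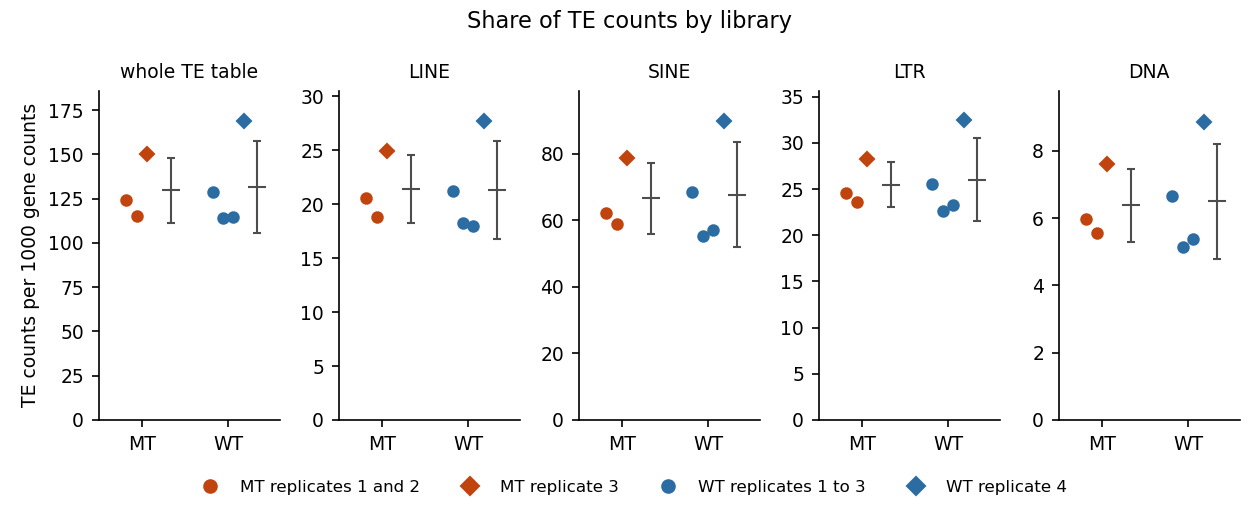
TE counts per 1000 gene counts in each library, for the whole TE table and for the 4 classes, with MT in orange, WT in blue, diamonds for MT replicate 3 and WT replicate 4 and bars for the mean ± SD of all libraries of a group. In every panel the 2 diamonds are the highest libraries and the genotypes overlap.

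By subfamily, none of 973 tested was called with 7 libraries (0.0%; edgeR with library sizes from the gene counts, Benjamini-Hochberg adjustment), 6 had an unadjusted p under 0.05 (0.617%), and DESeq2 called 0. The groups did not overlap for 8 subfamilies, 2 higher and 6 lower in MT (0.822%). The 35 SINE subfamilies were all lower in MT with 7 libraries, at a median log2 fold change of -0.05, and 34 were lower with 5 (-0.05). The SINE share, which has no TMM scaling, was slightly higher in MT without the pair, so this direction depends on the scaling. SINE families largely rose and fell together by library, so their subfamilies are not separate observations. LINE, LTR and DNA subfamilies had medians of -0.01, -0.03 and -0.07 with 7 libraries, against -0.04 for all subfamilies. With the sex-linked term 2 were called (0.206%), MMTV-int and RLTR48B, and with 5 libraries 3 (0.309%), LTRIS3, RLTR48B and SRV_MM-int. All 4 are endogenous retroviral sequences, LTRIS3 and RLTR48B of the ERV1 family and the others of ERVK, and all were lower in MT.

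LTRIS3, the long terminal repeat of a retroviral family, was at 28.1, 26.5 and 29.1 CPM, scaled by the gene counts, in MT and 57.2, 44.3, 46.6 and 21.6 in WT. As for Jun, WT replicate 4 was below every MT library while the other WT libraries were above them. Its log2 fold change was -0.85 ± 0.14 with 5 libraries (edgeR, adjusted p = 9.04e-07) and -0.60 with 7 (unadjusted p = 0.015). MMTV-int, the internal part of mouse mammary tumor virus-like elements, was at 24.9, 16.9 and 13.3 CPM in MT and 29.1, 31.2, 25.9 and 20.6 CPM in WT, and fell by 0.51 ± 0.12 on the log2 scale with the sex-linked term (edgeR, adjusted p = 0.0326). RLTR48B was at 17.0, 18.5 and 31.3 CPM in MT and 28.2, 25.8, 26.1 and 36.3 CPM in WT, with both outlying libraries highest in their group, and fell by 0.48 ± 0.12 with the sex-linked term (edgeR, adjusted p = 0.0428). SRV_MM-int was at 314, 308 and 499.7 CPM in MT and 491, 393, 434 and 499 CPM in WT, so that MT replicate 3 had left the level of the other MT libraries. L1Md_T, a young LINE subfamily, was at 428 to 602 CPM in MT, 467 to 638 CPM in 3 of the WT libraries and 1131 CPM in WT replicate 2.

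The difference between genotypes was tested against that at 18 months in one edgeR fit of the 13 CD11b+ libraries, which differ between the ages in 7SK and histone counts as described above. Of 14024 genes, 3 had a genotype difference that depended on age at an adjusted p under 0.05 (0.0214%), and 1035 did at an unadjusted p under 0.05 (7.38%). Camkk1, a kinase upstream of calmodulin-dependent kinases, was at 10.2, 13.2 and 14.7 CPM in young MT and 8.54 to 9.67 CPM in young WT, and at 8.69, 9.33 and 11.8 CPM in old MT and 24.5, 19.4 and 19.98 CPM in old WT. Fam20c, the kinase of secreted proteins, was at 12.1 to 13.2 CPM in young MT and 7.22 to 9.77 CPM in young WT, and at 6.25 to 6.94 CPM in old MT and 8.52 to 9.97 CPM in old WT. Tmem51, whose product is a membrane protein, had the same arrangement. In all 3 genes every young MT library was above every young WT library and every old MT library below every old WT library. The interaction on the log2 scale was 1.57 for Camkk1, 1.07 for Fam20c and 0.84 for Tmem51 (edgeR, adjusted p = 0.0126, 0.0239 and 0.0239). MT replicate 3 and WT replicate 4 were the only young libraries with the sex-linked level of the old ones. Between them the differences of log2(CPM + 1) were 0.55, 0.67 and 0.42, against old log2 fold changes of -1.10, -0.52 and -0.40. Both libraries were in the fit that chose these genes, and a single library of each genotype gives no replicate check. Age and the sex-linked level go together in most of these libraries and cannot be fully told apart. The number of genes called by this interaction test ranged from 0 to 39 when single young libraries were left out.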

How the data were processed

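The deposited tables hold whole-number counts per gene symbol and per TE subfamily, 1 file per library, as the authors made them. The submitters' processing notes name STAR, HTSeq, DESeq2 and the build mm10. Their roles and versions, the annotation, the strand setting and the handling of reads that map to several places are not given in the sources used here. The young tables list 15703 genes, each with at least 10 counts over the 7 libraries, and 1066 TE rows.

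Genes were tested with edgeR 4.0.16 (filterByExpr, TMM, robust quasi-likelihood, limma 3.58.1, R 4.3.3) and Benjamini-Hochberg adjustment over all genes tested, with a threshold of 0.05. TE subfamilies were tested in the same way with library sizes and factors from the gene counts. CPM uses TMM-scaled gene totals, and fold changes are MT against WT on the log2 scale. TE values in CPM use the same totals. The sex-linked term has 2 levels, more Ddx3y than Xist counts or the reverse. Alternatives used DESeq2 1.42.0 and voom with quality weights. The fits were tested on simulated data. Gene positions, promoters and chromosome 2 order come from RefSeq GRCm38.p6, which placed 15112 of the listed genes.

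Named genes were Asxl1, Itgam, Xist, Ddx3y and Serinc3, up to 10 called genes per direction and fit, the 10 per direction with the smallest unadjusted p at 2 CPM or more, and up to 4 members per list. Members printed beyond these were chosen after their values were seen. The 26 program lists, 11 marker lists and the members were chosen with earlier results of these data known.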

Additional observations from a re-analysis of the deposited data

Results flagged for a closer look

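Of 76 values examined over the 4 WT libraries, 11 had 1 library far from the others, in each case WT replicate 4. Chance flags about 1 in 20 groups, or 3.8 of 76, and the genes were partly chosen with this library left out. It had 0.306 CPM of Xist and 109 CPM of Ddx3y, the genes by which it was already known to stand apart. It was lower than WT replicates 1 to 3 for Serinc3 (903 CPM), Fos (1141 CPM), Lbp (105 CPM) and Myc (33.3 CPM). It was higher for Atf3 (63.8 CPM), Nr4a1 (155 CPM), Nfkbiz (396 CPM), Il1b (462 CPM) and Vcan (58.3 CPM). The MT group of 3 libraries is too small for the same look.

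A genotype difference that itself differed between 4 and 18 months was found for 3 genes by the edgeR interaction test, with interactions on the log2 scale of 1.57 for Camkk1, 1.07 for Fam20c and 0.84 for Tmem51. The young and old libraries also differ in 7SK and histone counts, and most of the young differ from the old in sex-linked level. Age and these differences cannot be fully told apart.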

How the results depend on the processing

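Counts of called genes moved with the settings. The 0 calls with 7 libraries became 19 with DESeq2, 7 with voom, 7 with the sex-linked term, 69 without MT replicate 3 and WT replicate 4, 5 in a fit of all 19 libraries and 0 to 1 without single libraries (1 without WT replicate 4). The 0 TE calls became 10 with voom, 2 with the sex-linked term, 3 without the pair and 0 to 1 without single libraries. The 3 genotype by age calls became 65 with DESeq2, 839 with voom, 19 with the term, 77 without the pair and 0 to 39 without single libraries (39 without WT replicate 4). The 7 calls with the term became 11 without a filter, 51 with DESeq2 and 0 to 70 without single libraries (0 without MT replicate 2, 70 without MT replicate 3), and its 2 TE calls became 1 with DESeq2 and 0 to 4. The 69 calls with 5 libraries became 174 with DESeq2 and 11 to 126 (11 without MT replicate 2, 126 without WT replicate 1), and the 3 TE calls 0 to 14. Without MT replicate 1 or 2 this fit has 1 MT library, which is assumed to vary like the WT libraries. The cause was not tested.

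Signs turned for small differences. Without the pair, Cbx7 was at 0.0203 and Kdm5c at 0.0151, and with the sex-linked term Eif2s3x was at 0.0106. The log2 fold change Itgam had without single libraries ran from -0.0734 to 0.0304. The other ranges were -0.64 to 0.41 for Xist, -0.87 to 0.16 for Atf3, -0.15 to 0.00188 for Ltb4r1, -0.0945 to 0.0218 for Hvcn1, -0.22 to 0.0188 for Cbx7, -0.20 to 0.12 for Kdm6a, -0.21 to 0.0738 for Eif2s3x and -0.16 to 0.13 for Kdm5c. The TE share difference was 0.442 per 1000 without the pair (SINE 0.211, LTR 0.253, DNA 0.0455). Without single libraries it ran from -12.1 to 10.7 (-1.60 to 2.28 for TE share LINE, -7.15 to 6.25 for TE share SINE, -1.91 to 1.66 for TE share LTR, -0.741 to 0.657 for TE share DNA), the ends being without MT replicate 3 and without WT replicate 4.

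Replicate numbers did not pair the libraries: the deviations of same-numbered MT and WT libraries correlated at 0.386, 0.113 and -0.208. With the replicate number as a block, the 0 gene calls became 16, the genotype by age calls 28, and the 7 calls with the sex-linked term 43. Itgam was then at 0.0306, and the TE share difference within numbers was 10.7 (SINE 6.25, LTR 1.66, DNA 0.657), the same values as without WT replicate 4. Genes at a few CPM, such as H2afy2 and Tgif2, rest on few counts.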
